A study of Bos taurus with 24 samples.

Results

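The 24 small RNA libraries of bovine plasma were ranked by the share of miR-486 among their raw miRNA counts. The 12 highest made up a miR-486-rich side and the 12 lowest a miR-486-poor side. The sides were thus chosen by a measured value, and they are not groups of the study. The libraries came from 8 Holstein-Friesian heifers, each bled on Day 0 (oestrus), Day 8 and Day 16 of a cycle that followed hormonal synchronisation of oestrus, so that 3 libraries belong to each heifer. All animals were synchronised alike and no group carried a further treatment. Plasma came from EDTA blood that was centrifuged to pellet cells and then again to clear platelets and debris, and 1 plasma sample gave 1 library.

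miR-486 is encoded within ANK1, the gene of the red cell skeleton protein ankyrin-1, and is abundant in red blood cells. miR-451 is made from a hairpin that Argonaute 2 cuts without Dicer, and it lies beside miR-144 in a cluster that is switched on during erythroid maturation. Mature red cells keep these miRNAs after losing their nucleus, so that plasma in which cells have burst can hold more of them, and the ratio of miR-451 to miR-23a, a miRNA rare in red cells, is widely used as a haemolysis index of plasma. The comparison asked which other miRNAs differed between the sides once miR-486 itself was taken out of the totals.

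The mature sequences of miR-486 and of the miRNA families that come up most below are shown 5′ to 3′ as DNA letters, read from the exact mature forms in the isomiR list that accompanies the study, with the seed (bases 2 to 8) in capitals, since the seed guides a miRNA to its target mRNAs. miR-25, miR-92a and miR-92b share the seed ATTGCAC. miR-93, miR-106b and miR-20a share AAAGTGC, and miR-15a, miR-16a and miR-16b share AGCAGCA.
miR-486: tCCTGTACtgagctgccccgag
miR-25: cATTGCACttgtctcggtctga
miR-92a: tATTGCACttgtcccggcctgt
miR-92b: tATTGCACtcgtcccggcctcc
miR-93: cAAAGTGCtgttcgtgcaggta
miR-106b: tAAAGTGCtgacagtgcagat
miR-20a: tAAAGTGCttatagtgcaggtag
miR-15a: tAGCAGCAcataatggtttgt
miR-16a: tAGCAGCAcgtaaatattggtg
miR-16b: tAGCAGCAcgtaaatattggc
miR-92a and miR-92b differed at 3 positions, and miR-16a and miR-16b at 1 over their shared length, which is as much as the 1 mismatch allowed in mapping, so that the levels of miR-16a and miR-16b may share reads. An exact mature sequence was matched for 80 of the 180 miRNAs tested.

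miR-486 took 22.2% to 45.1% of the counts in the 12 rich libraries (median 30.5%) and 6.07% to 21.4% in the 12 poor libraries (median 12.1%). These values made the sides and are given without a test. The order had no gap at the boundary: heifer 18 on Day 0, at 22.18%, was the last library on the rich side, and heifer 25 on Day 0, at 21.44%, the first on the poor side. The sides were not balanced over days or animals. The rich side held 3 of the 8 Day 0 libraries, 3 of the 8 Day 8 libraries and 6 of the 8 Day 16 libraries. Heifers 18 and 20 were on the rich side on every day and heifer 35 on the poor side on every day. The other 5 heifers had libraries on both sides, with heifer 34 rich on 2 days and heifers 16, 21, 22 and 25 rich on 1.

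**Figure D1:**
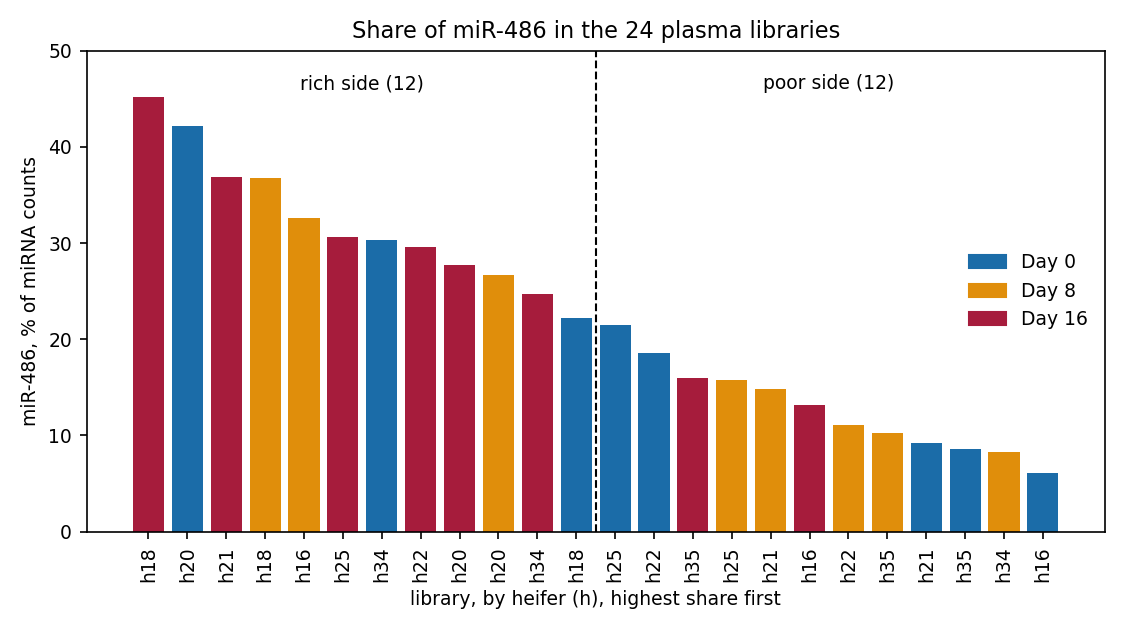
Share of miR-486 among the miRNA counts (%) in each of the 24 libraries, in falling order, with bars coloured by day and labelled by heifer. The dashed line divides the 12 rich from the 12 poor libraries, and the bars on either side of it are 22.18% and 21.44%.

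Counts other than miR-486 numbered 1489676 to 2812160 per rich library (mean 2099346 ± 428430, SD, n = 12). They numbered 1220747 to 3961124 per poor library (mean 2548949 ± 891607, n = 12). These counts are part of the total in the share that chose the sides, so they are given without a test. The miRNA share of genome-mapped reads, miR-486 included, was 70.7% ± 5.85 on the rich side and 69.3% ± 6.75 on the poor side (SD, n = 12 each). It contains the counts that chose the sides, so its p-value is left out. Without miR-486 the share was 47.8% ± 4.22 against 60.3% ± 5.58, a value that falls as miR-486 takes more of the mapped reads. Of 870 miRNAs in the table, 180 other than miR-486 were above 25 RPMM (counts scaled to the genome-mapped reads, as deposited) in 6 or more of the 8 libraries on every day and were tested. They held 99.7% of the remaining counts. The 3 libraries of a heifer are repeated samples of 1 animal. The fit with the heifer term takes this into account. The exact permutations of sides within days used below, and the fit with day as the only term, treat the 24 libraries as independent. Their p-values may therefore be too small.

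On the scale deposited by the authors, most other miRNAs were lower on the rich side. The median log2 difference between the sides (rich minus poor) over the 180 miRNAs was −0.31 in RPMM, with 155 of 180 lower on the rich side. With miR-486 taken out of the mapped reads it was −0.07, with 101 lower, and relative to the sum of the other miRNA counts 0.02, with 84 lower. All levels below are therefore CPM of the miRNA counts other than miR-486, scaled by TMM (CPM of the rest), and each log2 difference is rich minus poor with its SE.

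The miRNAs called higher on the rich side included miR-451, miR-92a and miR-25, which are abundant in red cells, and miR-484. With day and heifer as terms, edgeR's quasi-likelihood test called 9 miRNAs higher on the rich side, 5% of those tested, and 0 lower (0%), at a Benjamini-Hochberg adjusted p under 0.1. At an unadjusted p under 0.05, 27 were higher and 10 lower. The 9 were miR-484, miR-669, miR-92a, miR-2419-5p, miR-25, miR-328, miR-92b, miR-451 and miR-199b. With day as the only term, which also uses differences between animals, 30 were called higher (16.7%) and 21 lower (11.7%), among them 7 of the 9, all but miR-2419-5p and miR-92b. The test of whether the difference changed with the day called 0 miRNAs (4 at an unadjusted p under 0.05, and smallest edgeR adjusted p = 0.994).

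The number of calls moved with the method. Other tools with day and heifer called 10 higher and 11 lower (DESeq2) and 2 higher and 10 lower (limma on log2 RPMM of the rest), and other scalings 5 and 1 (total counts without miR-486), 3 and 2 (RLE) and 2 and 38 (miR-486 kept in the totals). Without heifer 16, 21, 22, 34 or 35 the count of higher miRNAs fell to 1 each, and it was 3 without heifer 20, 4 without heifer 25 and 14 without heifer 18. Each of the 9 missed the limit in some alternative, with a highest adjusted p from 0.255 for miR-484 to 0.559 for miR-2419-5p, and 8 of them kept their sign in all 23. miR-451 and miR-25 passed in 10 of the 23 and miR-92a in 16.

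miR-451 (mature copy on chromosome 19, 20147906 to 20147928, minus strand, in the UMD 3.1 assembly the study mapped to) ranged from 24557 to 49386 CPM of the rest in the rich libraries (median 28271) and from 6990 to 23573 in the poor libraries (median 13106). Every rich library lay above every poor one, which was so for 2 of the 180 miRNAs (1.11%), miR-451 and miR-484, and for 0 in the other direction. The log2 difference was 0.90 (SE 0.266, edgeR adjusted p = 0.0727), and 1.15 without the heifer term (SE 0.203, adjusted p = 0.000257). In heifer 16 miR-451 was at 6990 CPM of the rest on Day 0 and 17321 on Day 16, both poor libraries, and at 26383 on Day 8, when its library was rich. Heifer 34 showed the same order, with 27330.1 and 29405 CPM of the rest in its rich libraries of Days 0 and 16 and 9126 in its poor library of Day 8. In each of the 5 heifers with both kinds of library the rich ones were higher on average. This and the later counts of heifers use mean log2 levels with day not removed. Heifers 21, 22 and 25 were rich on Day 16 only, so day and side are not separated for them in those counts.

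miR-144, the neighbour of miR-451 in the cluster, ranged from 231.7 to 644.4 CPM of the rest on the rich side (median 322.6) and from 98.3 to 283.4 on the poor side (median 174.2). It was higher in 5 of 5 heifers, but the log2 difference of 0.47 (SE 0.24) did not pass with the heifer term (edgeR adjusted p = 0.296), while it passed at 0.91 (SE 0.2, adjusted p = 0.00314) without it. The sides overlapped, with 9 of 12 rich libraries above every poor one. Of the 3 erythrocyte markers, miR-486 chose the sides, miR-451 was called in both fits and miR-144 in 1 of them.

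The miR-451 to miR-23a ratio is read within a library and does not depend on scaling. As log2 it was 2.14 to 4.07 on the rich side (mean 2.92 ± 0.516, SD, n = 12) and 0.337 to 2.54 on the poor side (mean 1.58 ± 0.683, n = 12). The sides overlapped in the range from 2.14 to 2.54. The difference with day means removed was 1.08 (exact permutation of sides within days, two-sided p = 0.000216, adjusted over 5 measures of the libraries p = 0.00108). The 5 were this ratio, the counts other than miR-486, the miRNA share, the number of miRNAs detected and the human-named share. The difference had the same sign on each day, at 1.42 on Day 0, 1.22 on Day 8 and 1.02 on Day 16. Within the 5 heifers that had both sides, with day means not removed, the difference was 1.10 ± 0.448 (SD). The ratio was higher on the rich side in 5 of 5 (exact sign-change p = 0.0625, the smallest that 5 heifers allow). Day is not separated from side in this value, since heifers 21, 22 and 25 were rich on Day 16 only. miR-23a, the denominator, ranged from 2936 to 6222 CPM of the rest on the rich side and from 3169 to 5535 on the poor side (log2 difference 0.11, SE 0.136, edgeR adjusted p = 0.712, and −0.03 without the heifer term, with a sign that turned under other scalings too).

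**Figure D2:**
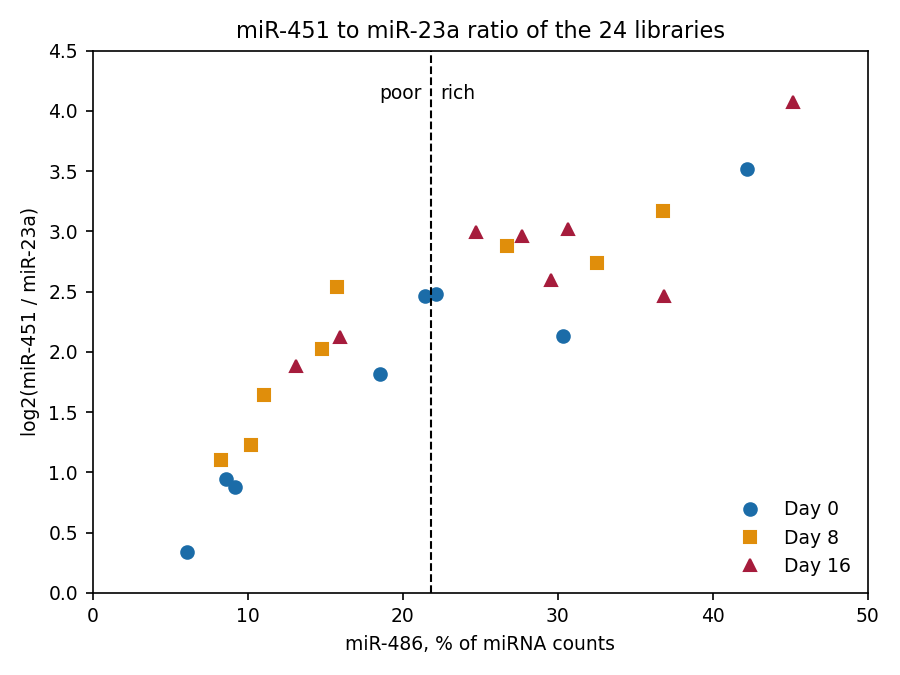
Log2 ratio of miR-451 to miR-23a in each library (vertical axis) against the share of miR-486 (%, horizontal axis), with points coloured and shaped by day. The dashed line divides the sides. Rich libraries sit between 2.14 and 4.07 and poor ones between 0.337 and 2.54.

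miR-484 gave the largest difference among the 9. It is transcribed from its own short gene (chromosome 25, 14994312 to 14994333, plus strand, UMD 3.1) and is a common component of plasma and red cell miRNA profiles. It ranged from 1074 to 2322 CPM of the rest on the rich side (median 1394) and from 657.6 to 1037 on the poor side (median 792.6), with no overlap. The log2 difference was 1.01 (SE 0.198, edgeR adjusted p = 0.0113) with the heifer term and 0.99 (SE 0.143, adjusted p = 5.65e-05) without it. It was higher in 5 of 5 heifers, by 0.48 to 1.51, and passed in 22 of 23 alternatives, the exception being the fit without heifer 16 (log2 difference 0.76, adjusted p = 0.255). In heifer 21 it was at 690.3 and 865.1 CPM of the rest in the poor libraries of Days 0 and 8 and at 2207 in the rich library of Day 16.

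The 3 miRNAs with the seed ATTGCAC shown above were all called. miR-25 lies with miR-93 and miR-106b in an intron of MCM7, a gene of the replication helicase (chromosome 25, 38456026 to 38456047, plus strand, UMD 3.1), and ranged from 21959 to 40509.6 CPM of the rest on the rich side (median 25974) and from 11867 to 22354 on the poor side (median 15614). 11 of 12 rich libraries lay above every poor one, and the log2 difference was 0.66 (SE 0.191, edgeR adjusted p = 0.0727). miR-92a, the last member of the miR-17-92 cluster, ranged from 23447 to 91781 CPM of the rest (median 52047) against 29062 to 46713 (median 37963). Its rich side held both the highest value, of heifer 21 on Day 16, and the lowest, of heifer 18 on Day 0. The log2 difference was 0.86 (SE 0.219, edgeR adjusted p = 0.0557), higher in 5 of 5 heifers. miR-92b ranged from 973.1 to 3514 CPM of the rest (median 1474) against 830.4 to 1632 (median 1411), so that the medians lay close together. Its log2 difference of 0.70 (SE 0.203, adjusted p = 0.0727) was 0.40 without the heifer term and did not pass there (adjusted p = 0.125). miR-32, a further member of this family by its known sequence, picked out after its values were seen, went the other way, at −0.26 (SE 0.187, adjusted p = 0.485) and at −0.41 without the heifer term (adjusted p = 0.0343).

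Members made from the same primary transcript were not all called, and differences between members were not tested. The MCM7 neighbours miR-93 and miR-106b had log2 differences of 0.47 (SE 0.188, edgeR adjusted p = 0.171) and 0.44 (SE 0.195, adjusted p = 0.224). They passed without the heifer term at 0.60 and 0.62 (adjusted p = 0.00376 and 0.00534), as did miR-25 at 0.77 (adjusted p = 0.000246). All of miR-25, miR-93 and miR-106b were higher in 5 of 5 heifers. Of the miR-17-92 cluster, which encodes miR-92a together with miR-17-5p and miR-20a, only miR-92a was called among the 3. miR-17-5p ranged from 268.9 to 516.4 CPM of the rest on the rich side and from 283.7 to 624.1 on the poor side (log2 difference 0.02, SE 0.19). miR-20a, which carries the seed of miR-93, ranged from 104.2 to 256.5 against 142.7 to 287.0 (−0.04, SE 0.189). The signs of both miR-17-5p and miR-20a turned under other settings. The log2 ratio of miR-92a to miR-17-5p within a library was 6.45 to 7.47 on the rich side (median 6.99) and 5.88 to 6.99 on the poor side (median 6.42). Mature miR-92a can also come from a second locus on the X chromosome, and the counts do not separate them.

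**Figure D3:**
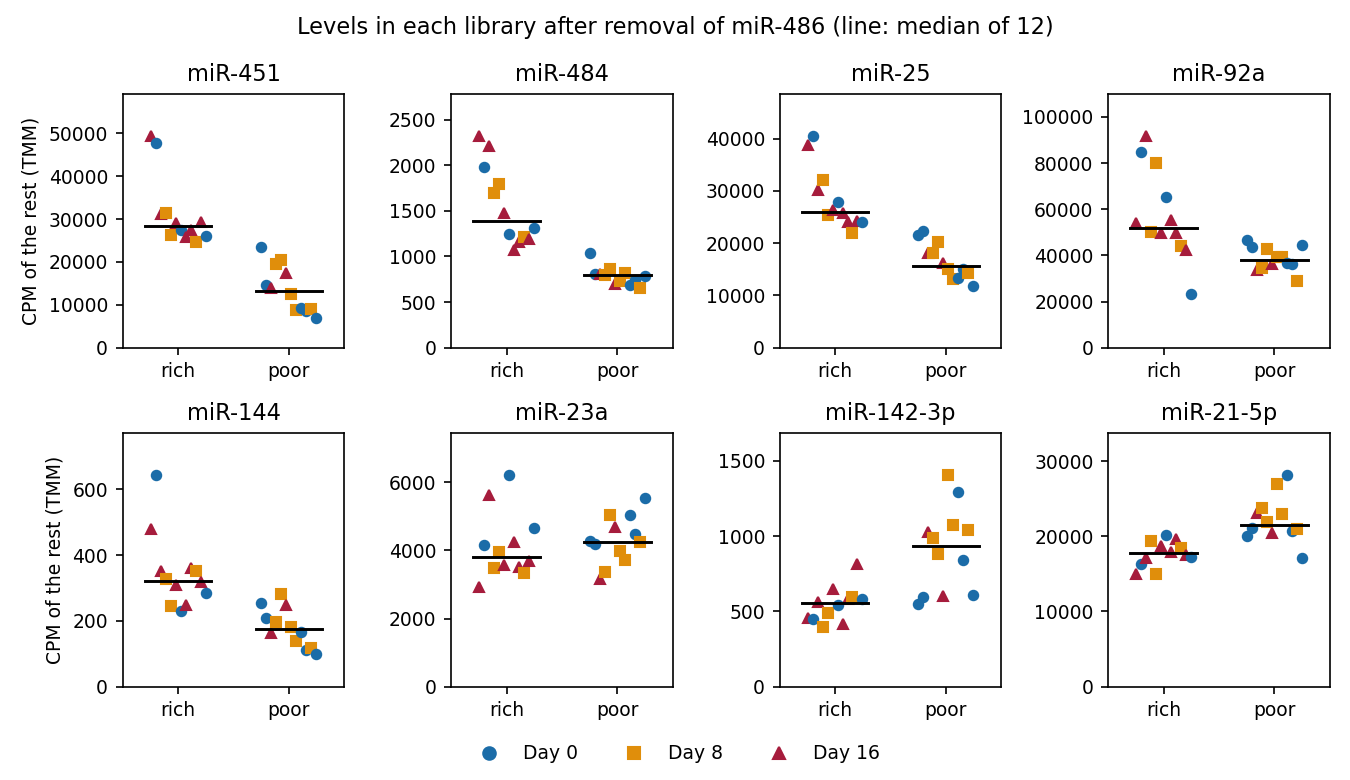
Levels of 8 miRNAs in each library (CPM of the rest, TMM-scaled, linear axes from 0), rich and poor side by side, with points coloured by day, ordered from left to right by falling miR-486 share, and a line at the median of 12. miR-451 and miR-484 do not overlap between the sides, miR-23a overlaps throughout, and the rich medians of miR-142-3p and miR-21-5p lie below the poor ones.

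Of 20 miRNAs on an erythrocyte list, 15 were tested, 12 were above 0 and 4 were called (miR-484, miR-451, miR-92a and miR-25), against 5% of all tested, and 10 were called without the heifer term against 16.7%. The median log2 difference was 0.44 for the list, 0.01 over all tested and −0.01 outside the list. The list was chosen with earlier results of these data known, so these values are a description. The listed miRNAs together took 10.1% to 21.6% of the other counts on the rich side and 6.85% to 13.0% on the poor side. miR-16b, a member of the miR-15/16 family that restrains the cell cycle, had a log2 difference of 0.62 (SE 0.28, edgeR adjusted p = 0.225), and passed without the heifer term at 0.62 (SE 0.192, adjusted p = 0.028). Its relatives miR-16a, miR-15a and miR-15b were at 0.40, 0.32 and 0.30 (adjusted p = 0.497, 0.373 and 0.353). Without the heifer term miR-15a and miR-15b passed at 0.48 and 0.35 (adjusted p = 0.0205 and 0.0514), and miR-16a did not (0.36, adjusted p = 0.19). With miR-486 kept in the totals, where the median of all tested was −0.34, miR-15a and miR-15b were at −0.04 and −0.05. miR-660 (−0.07, SE 0.144) and miR-182 (−0.34, SE 0.303) did not pass, and miR-182 was lower on the rich side in all 5 heifers.

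The 5 listed miRNAs below the limit on low values were not tested, and their medians did not all differ one way. They are given in deposited RPMM, on which 155 of the 180 tested miRNAs were lower on the rich side. A lower rich median on that scale may therefore come from the scaling alone. In deposited RPMM, miR-185 had a median of 9.34 on the rich side and 4.77 on the poor side, whereas miR-363, from the X-linked sister of the miR-17-92 cluster, had 14.3 against 28.3. miR-20b, of the same cluster as miR-363, had medians of 1.09 and 1.94 RPMM. miR-183 had 2.73 and 3.89. miR-96 had a median of 0 on both sides, with at most 0.25 RPMM in a rich library and 9.46 in a poor one.

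**Figure D4:**
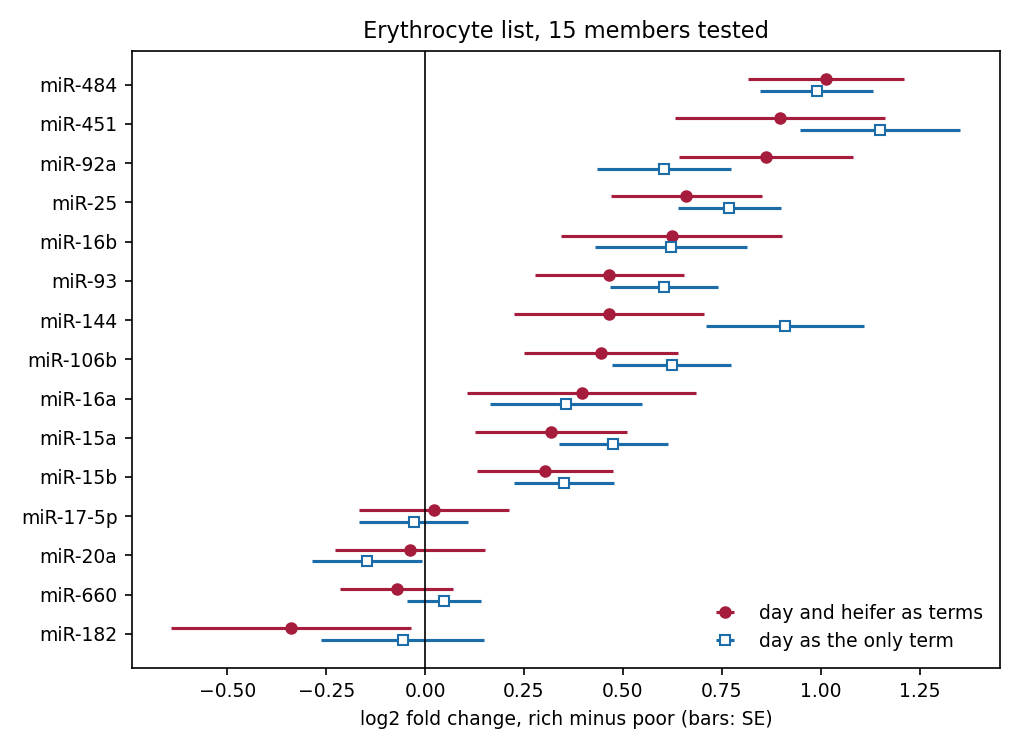
Log2 differences (rich minus poor) of the 15 tested erythrocyte-list miRNAs with bars of 1 SE, with day and heifer as terms (filled circles) and with day alone (open squares). The values with both terms run from −0.34 for miR-182 to 1.01 for miR-484.

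The remaining called miRNAs were not on that list. miR-199b, encoded within DNM1 and best known from mesenchymal cells, ranged from 169.6 to 384.4 CPM of the rest on the rich side (median 210.4) and from 97.1 to 191.7 on the poor side (median 127.1). Its log2 difference was 0.59 (SE 0.178, edgeR adjusted p = 0.0747) and 0.89 without the heifer term. miR-199c, which the deposited coordinates place beside it on chromosome 11, had 0.32 (SE 0.189, adjusted p = 0.373). It passed without the heifer term at 0.50 (adjusted p = 0.0124). With miR-486 kept in the totals, where the median of all tested was −0.34, it was at −0.04. miR-328, abundant in platelets, ranged from 105.8 to 236.5 against 79.6 to 269.3 (0.84, SE 0.243, adjusted p = 0.0727), with the highest library on the poor side. With miR-486 as a continuous term, a setting not among the 23 alternatives, miR-328 did not pass (0.15 per doubling of miR-486, SE 0.135, edgeR adjusted p = 0.504). The other 8 of the 9 called miRNAs passed there. miR-669 ranged from 210.8 to 351.2 against 162.3 to 291.9 (0.60, SE 0.145, adjusted p = 0.0525).

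miR-2419-5p, a bovine miRNA, depended on the animals. It ranged from 335.3 to 1451 CPM of the rest on the rich side (median 620.4) and from 438.9 to 1692 on the poor side (median 862.8). Heifer 18, always rich, had 335.3 to 428.6, and heifer 35, always poor, had 1145 to 1692. Within the 5 heifers that had both sides the rich libraries were higher on average in 5 of 5, and the log2 difference with the heifer term was 0.60 (SE 0.167, edgeR adjusted p = 0.0727). Without that term it was −0.32 (adjusted p = 0.411), and it was below 0 on each day.

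No miRNA was called lower on the rich side by edgeR with the heifer term and TMM (0 of 180, with 10 at an unadjusted p under 0.05), while 21 were without that term, and with it DESeq2 called 11, limma on log2 RPMM of the rest 10 and edgeR with RLE 2. miR-142-3p, a miRNA of white blood cells, ranged from 398.1 to 813.0 CPM of the rest on the rich side (median 555.0) and from 551.8 to 1407 on the poor side (median 935.1). It was lower in 5 of 5 heifers, with a log2 difference of −0.66 (SE 0.233, edgeR adjusted p = 0.133), and passed without the heifer term at −0.74 (SE 0.17, adjusted p = 0.00429). The other strand, miR-142-5p, had the higher mean count (90338 against 1775). It was at −0.09 (SE 0.145, adjusted p = 0.787), and at −0.15 without the heifer term (adjusted p = 0.33). miR-21-5p, one of the most widely expressed miRNAs, ranged from 14932 to 20219 against 17071 to 28168 CPM of the rest (−0.33, SE 0.131, adjusted p = 0.171), and passed without the heifer term at −0.32 (adjusted p = 0.0163). Its passenger strand miR-21-3p had −0.51 (adjusted p = 0.166), and passed without the heifer term at −0.38 (adjusted p = 0.0598). miR-301b and miR-130b, of the same seed family, had −0.54 and −0.33 (adjusted p = 0.166 and 0.225), and −0.81 and −0.36 without the heifer term (adjusted p = 0.00463 and 0.052). miR-148a, high in liver, had −0.51 (SE 0.175, adjusted p = 0.133), and miR-27b −0.34 (SE 0.116, adjusted p = 0.133). miR-148a passed without the heifer term at −0.37 (adjusted p = 0.052) and passed in 8 of the 23 alternatives. miR-27b did not pass without the heifer term (−0.20, adjusted p = 0.123) but passed in 7 of the 23 alternatives, among them DESeq2 (−0.41, adjusted p = 0.00264) and RLE (−0.41, adjusted p = 0.085), and its adjusted p over the alternatives ran from 0.00264 to 0.376. miR-345-3p, miR-1388-5p and the inflammation-linked miR-146a had −0.52, −0.49 and −0.45 (adjusted p = 0.166, 0.166 and 0.133), of which miR-345-3p passed without the heifer term (−0.59, adjusted p = 0.024).

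miR-26a and miR-26b, from introns of the CTDSP family of phosphatase genes, and miR-26c were singled out after their values were seen. miR-26a ranged from 5777 to 13924 CPM of the rest on the rich side (median 7221) and from 7420 to 29858 on the poor side (median 13273). Its log2 difference was −0.54 (SE 0.379, edgeR adjusted p = 0.468) with the heifer term and −0.87 (SE 0.273, adjusted p = 0.0292) without it. miR-26b had −0.41 and −0.72, and miR-26c −0.61 and −0.97, in the same order. All 3 were lower on the rich side in 5 of 5 heifers and the sides overlapped. miR-26c lies over 1 of the 2 miR-26a genes, at the same deposited coordinates on the opposite strand, so their counts may not be separate. On the other side, miR-101 and miR-331-5p, also chosen after their values were seen, had 0.53 and 0.42 (adjusted p = 0.133 and 0.145) and passed without the heifer term at 0.79 and 0.59 (adjusted p = 0.00107 and 0.000246).

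Markers of other blood cells were read against the 5% of all tested miRNAs called higher and the 0% called lower. Of 10 leukocyte miRNAs, 0 were called (2 lower and 1 higher at an unadjusted p under 0.05) and the median log2 difference was −0.09. Without the heifer term 1 was called higher and 3 lower, against 16.7% and 11.7% of all tested. The lymphocyte miRNA miR-150 was at 0.70 (SE 0.309, edgeR adjusted p = 0.224) and the activation-linked miR-155 at −0.22 (SE 0.205, adjusted p = 0.591), while without the heifer term they were at 0.02 and −0.67 (adjusted p = 0.953 and 0.024). Of 14 platelet miRNAs, 1 was called (miR-328) and 9 were below 0, with a median of −0.10, and without the heifer term 2 were called higher and 2 lower. The 3 of 10 leukocyte miRNAs called lower without the heifer term lay above the 11.7% of all tested. The other counts in either list lay near or below the shares over all tested. Counts this small are given as a description. miR-197, also of the platelet list, was at 0.86 (SE 0.297, adjusted p = 0.133). Their defining members miR-223, miR-126-3p and miR-191 were at −0.07, −0.16 and −0.19 (adjusted p = 0.903, 0.735 and 0.705). The summed level of the leukocyte list was 61107 to 93136 CPM of the rest on the rich side and 55617 to 93591 on the poor side, and that of the platelet list 59892 to 98845 against 67932 to 140010. The part that other blood cells had in the differences was not tested beyond these values.

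The tissue, cluster and family lists had too few calls to set them apart from the 5% called higher and 0% called lower over all tested miRNAs. Of 4 tested liver and gut miRNAs, 0 were called and all were below 0 (median −0.30). The liver miRNA miR-122 was under the limit, with medians of 33.4 RPMM on the rich side and 48.6 on the poor side. Deposited RPMM falls as miR-486 takes more of the reads. Of 12 mesenchymal miRNAs 1 was called (miR-199b, median 0.09), of 5 epithelial ones 0 (median 0.06, with the islet and gut miRNA miR-375 at 0.47, adjusted p = 0.232), of 8 let-7 miRNAs 0 (median 0.02, with let-7c at 0.66, adjusted p = 0.225), of 5 miR-30 miRNAs 0 (median −0.13), of 7 of the DLK1-DIO3 cluster 0 (median 0.04), of 2 X-linked cluster miRNAs 0 (median −0.03) and of 5 of the miR-23/27/24 group 0 (median −0.04). In the lists without a call, edgeR's unadjusted p was under 0.05 for 1 lower miRNA in the liver and gut list and 1 in the miR-23/27/24 group, and for 1 higher miRNA in the epithelial and 1 in the let-7 list. Without the heifer term, where 16.7% of all tested were called higher and 11.7% lower, the mesenchymal list had 3 of 12 called higher, the DLK1-DIO3 cluster 1 of 7 higher and the liver and gut list 1 of 4 lower. The muscle miRNA miR-133a spread from 46.9 to 2359 CPM of the rest on the rich side and from 32.8 to 4366 on the poor side. Its log2 difference of 1.05 (SE 1, adjusted p = 0.591) changed to −0.71 without the heifer term. The muscle miRNAs miR-1 and miR-206 were at most 4.01 RPMM in any library.

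**Figure D5:**
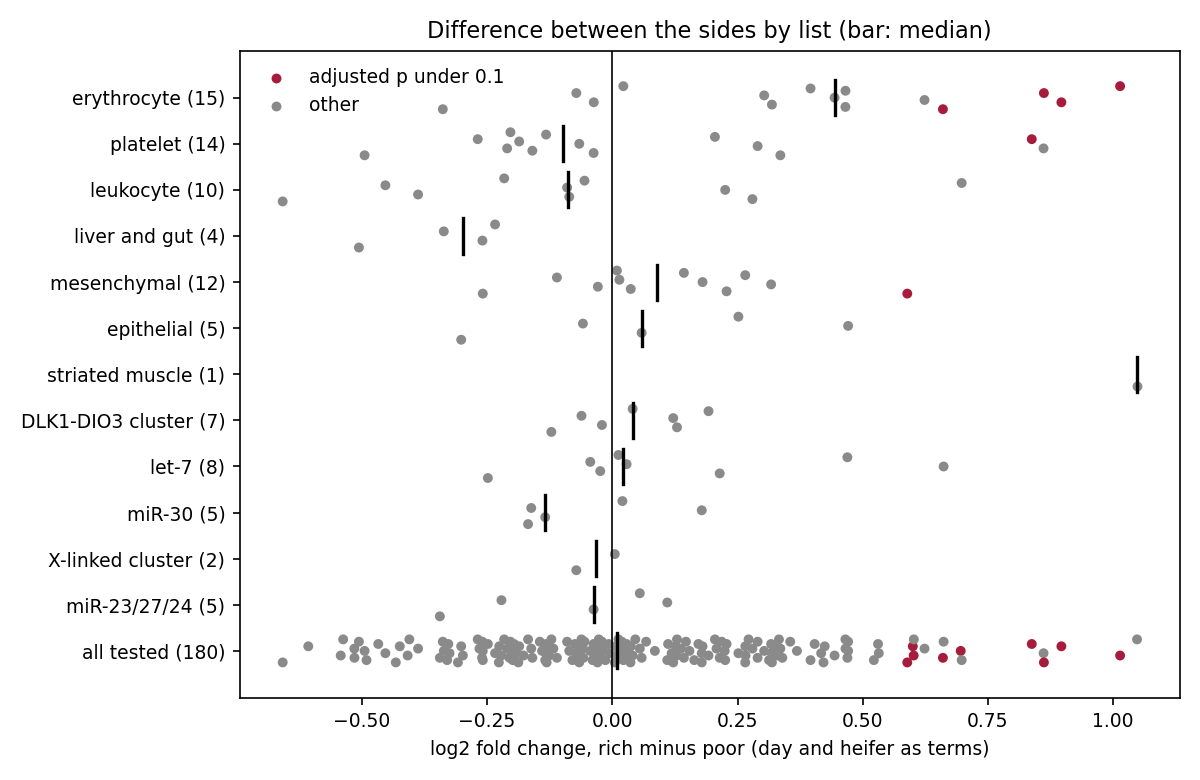
Log2 difference (rich minus poor, day and heifer as terms) of each tested miRNA by list, with red points for an adjusted p under 0.1 and a bar at the list's median. The erythrocyte list has its median at 0.44 and 4 red points, and all 180 tested miRNAs are in the lowest strip, with a median of 0.01. The lists were chosen with earlier results of these data known.

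Of the 10 most abundant miRNAs after miR-486, miR-92a and miR-25 were called higher, as given above, and the others did not pass with day and heifer as terms. miR-22-3p, the highest of them, took 10.8% to 16.2% of the other counts on the rich side and 13.4% to 16.8% on the poor side (log2 difference −0.19, SE 0.126, edgeR adjusted p = 0.436). It was lower on the rich side in 5 of 5 heifers. Without the heifer term it passed at −0.20 (adjusted p = 0.0905), and it passed in 5 of the 23 alternatives. miR-192, miR-191, miR-142-5p and miR-10b were at −0.34, −0.19, −0.09 and 0.14, and none passed with the heifer term. Without it miR-10b passed at 0.29 (adjusted p = 0.0643). With miR-486 kept in the totals, where the median of all tested was −0.34, miR-10b was at −0.21. miR-423-5p was at 0.40 (SE 0.148, adjusted p = 0.145), higher in 5 of 5 heifers. 13 further miRNAs named by the rule lay between −0.30 and 0.47, with a smallest adjusted p of 0.373.

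The number of miRNAs detected depended on whether miR-486 counted towards the limit. Above 1 RPMM the rich libraries held 355.3 ± 11.3 miRNAs (SD, n = 12) and the poor libraries 368.5 ± 10.05 (n = 12). RPMM is scaled to reads that include miR-486, which chose the sides, so this count falls with its share by construction and is given without a test. With miR-486 taken out of the reads that set the limit, an alternative added after the data were seen, the libraries held 375.5 ± 11.6 and 377.1 ± 12.8 (difference with day means removed −2, exact permutation of sides within days p = 0.698). The share of counts with human names was 0.142% ± 0.0441 against 0.129% ± 0.0543 (exact permutation p = 0.381).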

How the data were processed

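MiRNA reads were counted in 24 plasma small RNA libraries (TruSeq, Illumina). The authors trimmed the reads, matched them to bovine and then human mature miRNAs (sRNAbench, with Bowtie 0.12.9 and at most 1 mismatch), merged both sets, and deposited the raw counts per miRNA and library. The deposited table also holds RPM values (called RPMM), in which a count is scaled to the genome-mapped reads of its library. Of its per-sample columns 0 were left unused. A high miR-486 count lowers every other RPMM value of that library.

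Libraries were ranked by the miR-486 percent of the summed counts, and the 12 highest set against the 12 lowest. miR-486 was removed, library sizes recomputed, and miRNAs above 25 RPMM in 6 or more of 8 libraries on every day were tested with edgeR 4.0.16 (quasi-likelihood test, R 4.3.3, TMM, terms for day, heifer and side, Benjamini-Hochberg limit 0.1). The SE is the absolute log2 difference over the square root of F. Library measures used all 87808 exchanges of sides within days. Depth per side is given with the libraries. The procedure was tested on simulated data. Alternatives used DESeq2 1.42.0, limma 3.58.1, other scalings, limits, divisions of the libraries and terms, and leaving out each heifer. Python 3.11.15, numpy 2.4.6, pandas 2.3.3 and matplotlib 3.10.9 were used for other values.

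The heifer is the replicate number of the labels and pairs the libraries, since the study sampled each heifer on every day. Residual profiles had a median correlation of 0.333 within heifers (24 pairs) and −0.0448 between heifers (168 pairs). The sides and the miRNA lists were chosen with earlier results of these data known. Named were the tested erythrocyte list, the 10 miRNAs with the smallest p in each direction, the 10 with the highest counts, 2 from every other list with the smallest p, and miR-23a, miR-99a-5p, miR-145, miR-125b and let-7f, 55 in all, and 10 more outside this rule (miR-26a, miR-26b, miR-26c, miR-32, miR-101, miR-331-5p, miR-150, miR-223, miR-126-3p and miR-155), of which the last 4 are cell type markers. Gene and cluster positions beyond the deposited UMD 3.1 coordinates are names from RefSeq's ARS-UCD2.0.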

Additional observations from a re-analysis of the deposited data

How the results depend on the processing

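Counts of calls depended on the processing more than directions did. The main counts were 9 higher and 0 lower. Without the replicate block (day as the only term) they were 30 and 21, with limma-voom and the heifer as a random effect 27 and 19, with DESeq2 10 and 11, with limma on log2(RPMM of the rest + 1) or + 0.1 2 and 10 each, with total counts without miR-486 5 and 1, with RLE 3 and 2, and with total counts that kept miR-486 2 and 38, a scale on which the median of all miRNAs fell by 0.34. With the erythrocyte list also out of the totals they were 7 and 0, with no such limit on low counts 14 and 2, under filterByExpr 12 and 1, with 8 against 8 libraries 5 and 0, with 4 against 4 within each day 13 and 5, with miR-486 as a continuous term 21 and 16, with depth as a covariate 10 and 1, and with the 5 heifers on both sides only, added after the data were seen, 7 and 0. Leaving out single heifers gave 1 to 14 higher and 0 to 1 lower. Without heifer 16, 21, 22, 34 or 35 it was 1 each, without heifer 20 3, without heifer 25 4 and without heifer 18 14. The cause of these differences was not tested.

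Of the 9 called, 8 kept their sign in all 23 alternatives. miR-2419-5p turned to −0.32 without the replicate block and −0.24 with limma-voom. Of 1248 comparisons of 52 named miRNAs with their alternatives, 38 turned sign, mostly in miRNAs near 0. miR-17-5p (0.02) was at −0.0288 without the replicate block, −0.0178 with limma-voom, −0.0453 with DESeq2, −0.14 with limma on either pseudocount, −0.0450 with RLE, −0.32 with miR-486 kept in the totals, −0.0321 without a limit and −0.218 to 0.0972 over single heifers left out. miR-20a (−0.04) was at 0.0416 with the erythrocyte list out of the totals, 0.0536 with 4 against 4, 0.105 with the continuous term, 0.0060 with depth as a covariate and −0.167 to 0.0347 over heifers left out. miR-23a (0.11) was at −0.0302 without the replicate block, −0.00476 with limma-voom, −0.0616 with limma on either pseudocount and −0.244 with miR-486 kept. miR-660 (−0.07) was at 0.0481 without the replicate block and 0.0209 with limma-voom. miR-133a was at −0.709 without the replicate block, miR-10b at −0.0154 with limma on either pseudocount and −0.207 with miR-486 kept, miR-191 at 0.0527 in heifers on both sides, miR-223 at 0.0218 with the erythrocyte list out of the totals, miR-142-5p at 0.0357 with the continuous term, and miR-126-3p at −0.279 to 0.0759 over heifers left out. With miR-486 kept, miR-15a was at −0.0395, miR-15b at −0.0469 and miR-199c at −0.0361. The difference in the log2 ratio of miR-451 to miR-23a stayed between 0.895 and 1.31 over heifers left out. Within heifers, with day not removed, it was 1.10, where 5 animals cannot reach p under 0.0625 by exact sign changes. The difference in miRNAs detected fell to −2 with miR-486 out of the limit.

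The sides were chosen after measurement, on 24 libraries of 8 animals, and 6 of 12 rich libraries were from Day 16. Absorbance readings of haemolysis, which the study made, were not used here. Near-identical miRNAs may share reads.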

Other observations

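The log2 ratio of miR-486 to miR-451 was itself higher on the rich side, at 3.34 to 4.40 (median 3.95, n = 12), than on the poor side, at 3.08 to 3.82 (median 3.42, n = 12). Since miR-486 chose the sides, this is a description. miR-451 to miR-144 had log2 ratios of 6.13 to 6.88 (median 6.55) on the rich side and 5.79 to 6.64 (median 6.16) on the poor side, and miR-25 to miR-93 of 2.37 to 2.74 (median 2.47) and 2.05 to 2.65 (median 2.33). Per doubling of miR-486 relative to the other counts, edgeR with day and heifer gave log2 changes of 0.62 for miR-451, 0.52 for miR-484, 0.52 for miR-16b, 0.50 for miR-92a and 0.45 for miR-25, and −0.38 for miR-142-3p.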
